A study of Homo sapiens with 16 samples.

Results

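The genes described here are 38 genes of amino acid supply and its stress response, read in A431 and HaCaT cells with lowered or activated YAP1. They were chosen by symbol from a deposited table of 26229 genes: 20 cytosolic tRNA synthetases, 8 enzymes of serine, asparagine, proline and one-carbon synthesis, and 10 genes of the integrated stress response. Each symbol matched 1 row, and all 38 passed the filter on low values (over 10 counts in the mean library), which left 14673 genes to test. A431 is an epidermoid carcinoma line and HaCaT an immortalised keratinocyte line, both grown in DMEM with serum and each a single line. For each line there was 1 library of cells given a control siRNA (siCTRL), 3 given siRNA against YAP1 (siYAP), 1 carrying an empty expression vector and 3 expressing YAP5SA, a constitutively active YAP1 mutant. The siRNA cultures received no vector and the vector cultures no siRNA. The siRNAs were transfected in 2 rounds 24 h apart and RNA was taken 48 h after the second, and the promoter and the time of vector expression are not given in the sources used here. The methods call the treated libraries biological triplicates, and each control was a single library, so every test against a control takes its error from the spread of the triplicates.

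Cytosolic tRNA synthetases join each amino acid to its tRNA before translation. When amino acids run short, uncharged tRNA activates the kinase GCN2, eIF2 is phosphorylated, and translation of the transcription factor ATF4 rises. ATF4, with C/EBP partners, then switches on amino acid transporters, synthetases, ASNS and the serine pathway, and in prolonged stress DDIT3 (CHOP), TRIB3 and CHAC1. Unfolded protein in the endoplasmic reticulum and viral RNA reach the same step through other kinases.

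Composite elements bound by ATF4 with a C/EBP protein have the letters TGATGNAA, and the members that hold them are shown first because the values below are later split by this feature. RefSeq promoters (GRCh38.p14, 250 bases before to 50 after each start) were matched for 30 members, and 9 of these (30%) held the letters on either strand, against 4.46% of all 27305 genes with a promoter. The 60 bases around each match are written 5′ to 3′ on the strand of the gene, with the match or its reverse complement in capitals. No entry was found for DARS, LARS, VARS, YARS, PSPH, SHMT2, ALDH1L2 and PYCR1.
ASNS: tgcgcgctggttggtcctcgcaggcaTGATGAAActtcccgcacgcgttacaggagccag
CHAC1: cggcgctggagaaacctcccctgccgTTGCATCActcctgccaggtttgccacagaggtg
MARS: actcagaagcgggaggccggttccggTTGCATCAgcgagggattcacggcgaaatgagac
GARS: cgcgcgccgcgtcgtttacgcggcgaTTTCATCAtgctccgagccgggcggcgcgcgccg
IARS: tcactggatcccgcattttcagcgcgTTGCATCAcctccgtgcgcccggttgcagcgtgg
TARS: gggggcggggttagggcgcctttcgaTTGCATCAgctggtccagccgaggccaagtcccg
CARS: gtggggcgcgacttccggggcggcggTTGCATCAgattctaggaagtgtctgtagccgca
AARS: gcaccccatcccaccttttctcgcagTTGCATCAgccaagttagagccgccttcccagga
NARS: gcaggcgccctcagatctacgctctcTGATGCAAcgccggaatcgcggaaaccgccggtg
The ASNS stretch lies at chr7:97872443-97872502 on the minus strand and begins its match 68 bases before the start, the CHAC1 stretch at chr15:40953236-40953295 on the plus strand with the match 209 bases before it, and the MARS stretch at chr12:57488038-57488097 on the plus strand with the match 4 bases before it. The others lie at chr7:30594819-30594878 (GARS, plus), chr9:92293677-92293736 (IARS, minus), chr5:33440941-33441000 (TARS, plus), chr11:3057392-3057451 (CARS, minus), chr16:70289660-70289719 (AARS, minus) and chr18:57621789-57621848 (NARS, minus). In ASNS and NARS the letters stood on the strand of the gene and in the other 7 on the opposite strand.

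Library totals ran from 18115624 to 46791673 estimated counts. Levels are given as CPM, the count of a gene per 1000000 counts of its library, scaled by the TMM method, which corrects for differences in library composition. YAP1 fell from 94.3 CPM in A431 siCTRL to 5.04 to 7.0 in siYAP, and from 254 to between 21.6 and 23.2 in HaCaT. It stood at 124 and 423 with the empty vector, at 1495, 3245 and 2939.6 in A431 YAP5SA replicates 1, 2 and 3, and at 7549, 22255 and 10069 in HaCaT. The 9 keratinocyte markers were above 1 CPM in every library. Of the fibroblast markers the summed level was 21.5 to 27.9 CPM in HaCaT siRNA libraries and 0.669 to 1.90 in HaCaT vector libraries, and of the endothelial markers 16 to 59.2 and 1.18 to 2.46. In the HaCaT siRNA libraries the fibroblast sum was mostly DCN and LUM and the endothelial sum mostly CDH5. The arms differed in the same direction in A431. There the fibroblast sum was 10.2 to 14.8 CPM in siRNA libraries and 2.45 to 5.46 in vector libraries, and the endothelial sum 18.3 to 33.8 and 3.88 to 5.92. The immune markers summed to 0.892 to 7.03 CPM and the melanocyte markers to 33.8 to 118, with TYR at 0 counts in every library. Nearly all of the melanocyte sum was MITF, at 32.3 to 116 CPM, while PMEL reached at most 2.59 CPM. The part of these differences in the member values was not tested. A431 YAP5SA replicate 1 stood apart from the other libraries of its triplicate over all genes: 62% of all tested genes lay nearer the empty vector than the other replicates there, against 29.5% and 26% in replicates 2 and 3, and the chi-square per degree of freedom between libraries was 75.4 and 70.7 for pairs with replicate 1 and 6.65 for the other pair. The pairs of the HaCaT YAP5SA triplicate differed at least about as widely, at 70.8, 108 and 144. There 40%, 34.3% and 24.6% of all tested genes lay nearer the empty vector in replicates 1, 2 and 3. The size of the gap over all genes was thus not particular to A431 YAP5SA replicate 1. Counts of called members are given with and without A431 YAP5SA replicate 1, some of them only in the closing section. Most other values that rest on it, such as overlaps, counts in other gene lists and medians by promoter letters, are given only with it. Since the members are low in that library, leaving it out raises their YAP5SA level and lowers their spread by that choice, so counts without it are descriptions and not independent evidence.

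A431 YAP5SA replicate 1 had most members near empty vector levels, and replicates 2 and 3 had most of them higher. Each treated library was set against the mean of the other 2 of its triplicate. In A431 YAP5SA replicate 1 the median member lay 0.93 log2 units below the others, against -0.0035 for all tested genes, and 34 of the 38 were lower than in both other libraries, against 44.2% of all tested genes. In the other 11 treated libraries the median member deviated by -0.12 to 0.60, the highest value being that of replicate 2 of the same triplicate. The median member of replicate 1 was 0.04 above the A431 empty vector library, against 1.06 and 0.89 in replicates 2 and 3. Whether the lower YAP1 level of that library has a part in this was not tested.

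**Figure D1:**
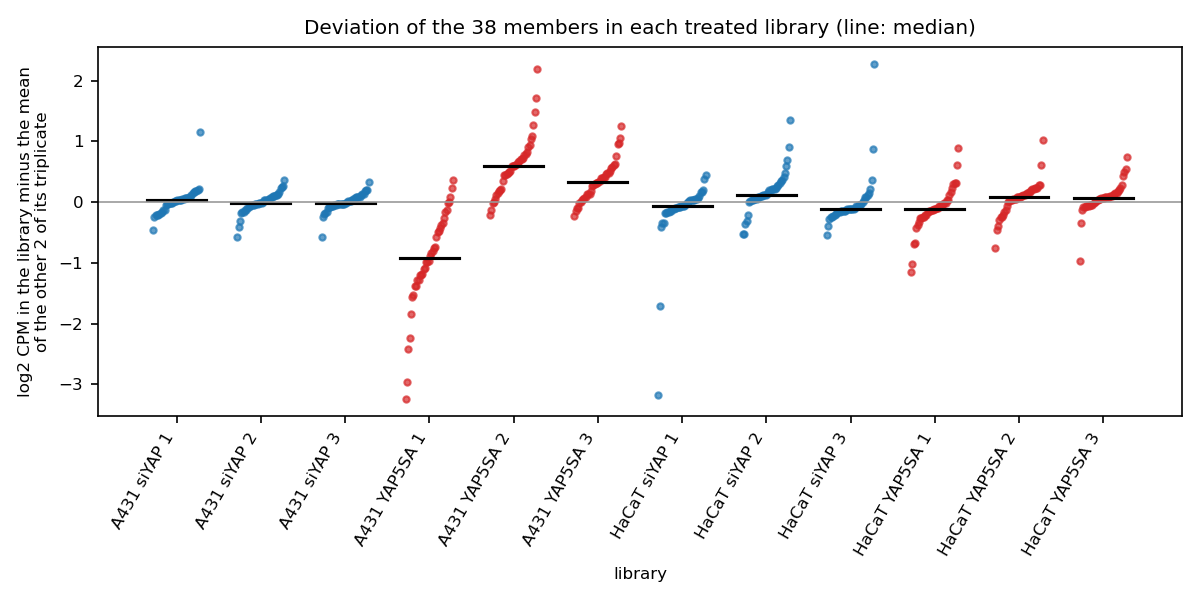
Each point is 1 of the 38 members in 1 of the 12 treated libraries (x axis), plotted as its log2 CPM minus the mean log2 CPM of the other 2 libraries of the triplicate (y axis), with the median as a black line. The points of A431 YAP5SA replicate 1 lie mostly below 0, with a median of -0.93, and reach -3.24.

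The serine and asparagine enzymes showed the gap most plainly. PSAT1, the aminotransferase of the serine pathway, was at 26, 224 and 182 CPM in A431 YAP5SA replicates 1, 2 and 3, at 27.6 with the empty vector, at 28.5, 28.1 and 30.1 in siYAP and at 134 in siCTRL. Replicate 1 thus lay with the empty vector and siYAP, and the other pair above siCTRL. ASNS, which makes asparagine, was at 66.0, 334 and 290.1 CPM in the same replicates, at 63.7 with the empty vector, at 120.3, 102 and 108 in siYAP and at 213 in siCTRL. PHGDH, which starts the serine pathway from a glycolytic intermediate, was at 138, 329 and 295 CPM with YAP5SA, 160.2 with the empty vector, 139.6, 134 and 138 in siYAP and 159 in siCTRL. PSPH, the last enzyme of that pathway, was 2.88-fold higher in the geometric mean of replicates 2 and 3 than in replicate 1, and the mitochondrial folate enzymes SHMT2, MTHFD2 and ALDH1L2 1.95-fold, 1.79-fold and 2.60-fold higher. PYCR1, the proline enzyme, was 1.5-fold higher.

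Among the synthetases the gap ran from none to 3.59-fold. MARS, for methionine, was at 72.0, 279 and 239.8 CPM in A431 YAP5SA replicates 1, 2 and 3, at 75.7 with the empty vector, at 115, 117 and 114 in siYAP and at 198 in siCTRL. WARS, for tryptophan, is known to respond to interferon as well, and was at 208, 540.2 and 479 CPM, against 255 with the empty vector, 117, 129 and 104 in siYAP and 225 in siCTRL. DARS, for aspartate, was at 240.4, 241 and 247 CPM with YAP5SA, 225 with the empty vector, 201, 203 and 190.5 in siYAP and 223 in siCTRL, so replicate 1 did not stand apart in it. GARS, WARS and IARS were 2.97-fold, 2.45-fold and 2.43-fold lower in replicate 1 than in the geometric mean of the others, YARS, EPRS and AARS 2.30-fold, 2.15-fold and 2.13-fold, and SARS, TARS, VARS, NARS and CARS 1.98-fold, 1.98-fold, 1.86-fold, 1.74-fold and 1.68-fold. HARS, FARSA, FARSB, LARS, KARS and RARS were 1.10-fold to 1.39-fold lower, and QARS, for glutamine, was higher there.

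Of the stress genes, CHAC1, a glutathione-degrading enzyme, was at 0.517, 6.58 and 3.86 CPM in A431 YAP5SA replicates 1, 2 and 3, 1.06 with the empty vector, 1.62, 1.90 and 1.85 in siYAP and 4.41 in siCTRL. STC2, a secreted glycoprotein, was at 10.1, 61.4 and 48.2 CPM with YAP5SA, 9.83 with the empty vector, 36.2, 37.7 and 42.0 in siYAP and 88.5 in siCTRL. In both genes replicate 1 lay below siYAP and the other replicates above it, though not all above siCTRL. TRIB3, a pseudokinase that dampens ATF4, was at 61.7, 154 and 129.9 CPM, against 65.9 with the empty vector, 93.9, 103 and 107 in siYAP and 123 in siCTRL. ATF4 itself was at 218, 390.1 and 351 CPM, against 199 with the empty vector, 285, 265 and 278 in siYAP and 285 in siCTRL. SESN2, an inhibitor of mTORC1 signalling, was 2.62-fold lower in replicate 1. DDIT3, which encodes CHOP, did not take part: it was at 31.2, 32.2 and 26.9 CPM with YAP5SA, 19.9 with the empty vector, 45.4, 38.6 and 41.0 in siYAP and 24.9 in siCTRL. CEBPB and DDIT4 differed less than 1.3-fold from replicate 1, in opposite directions, and ATF5 was 1.42-fold lower there. VLDLR, a lipoprotein receptor, had 0 counts in all 3 replicates.

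**Figure D2:**
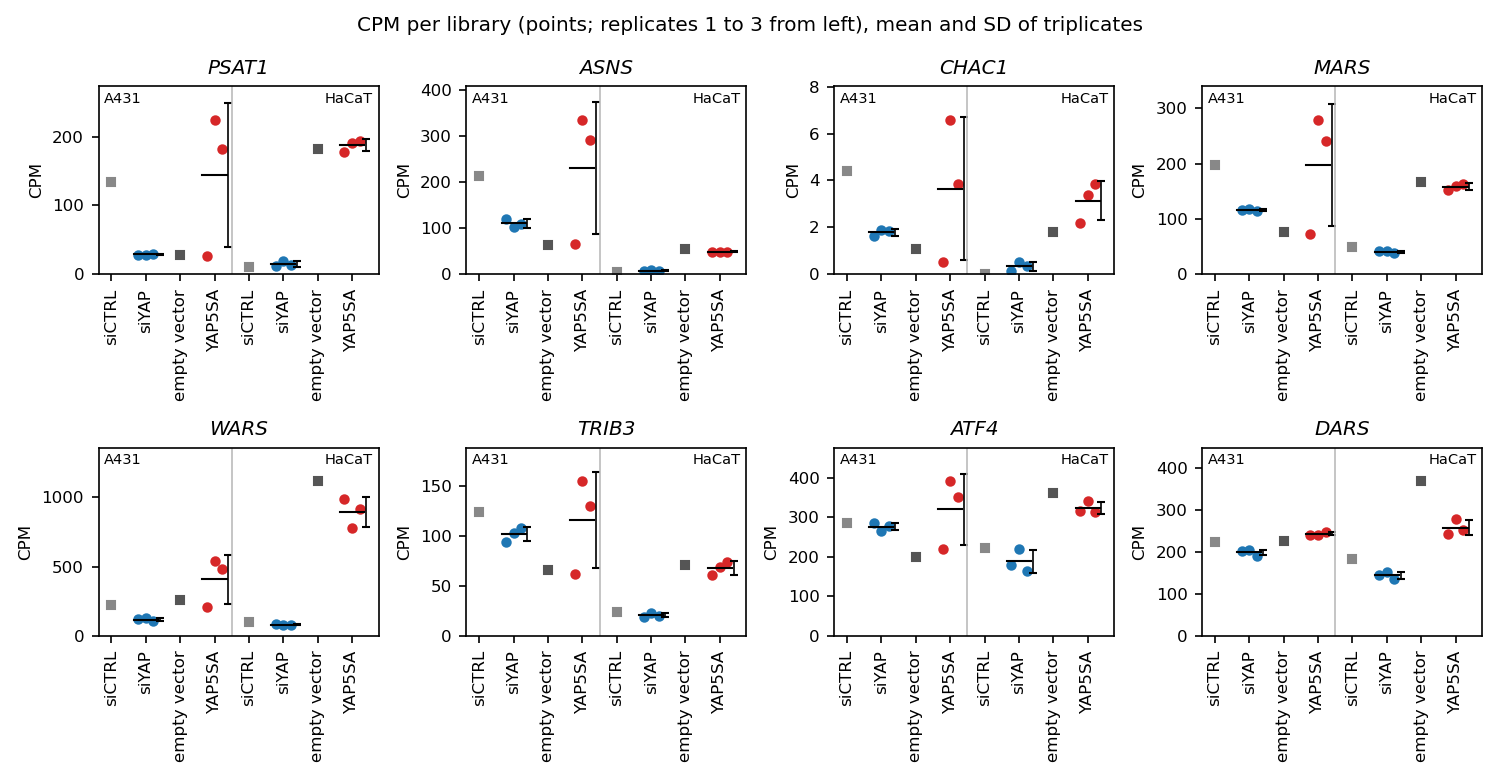
CPM (y axis, from 0) of 8 members in each of the 16 libraries, by line and treatment (x axis), with points for libraries, replicates 1 to 3 from left to right, and the mean and SD of each triplicate. In PSAT1, ASNS, CHAC1, MARS, WARS, TRIB3 and ATF4 the left A431 YAP5SA point lies near the empty vector and the other 2 above it, while DARS shows no such gap.

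The spread within triplicates was measured as the SD of log2 CPM (prior count 0.5), pooled over the 4 triplicates. Its median was 0.329 for the members and 0.223 for all tested genes. In the A431 YAP5SA triplicate the median SD was 0.548 against 0.187, and 16 of the 38 members lay above the 90th percentile of all genes. In the other triplicates the members were less spread than genes at large, with medians of 0.0942 against 0.138 in A431 siYAP, 0.129 against 0.148 in HaCaT siYAP and 0.145 against 0.242 in HaCaT YAP5SA. Without A431 YAP5SA replicate 1 the pooled median of the members was 0.141. The largest pooled SDs were those of CHAC1 (1.11), VLDLR (1.01), PSAT1 (0.875) and STC2 (0.782), and the smallest those of DARS (0.0728), QARS (0.108), RARS (0.108) and LARS (0.108). The SDs of CHAC1 and VLDLR in HaCaT siYAP rest on few counts, between 0 and 11 per library.

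The same triplicate was less spread in neighbouring gene lists. In A431 YAP5SA the median SD was 0.0828 in 17 mitochondrial tRNA synthetases, 0.136 in 14 chaperones of the endoplasmic reticulum, 0.122 in 7 genes of the eIF2 kinases and their phosphatase, and 0.168 in 8 interferon-responsive genes. It was 0.453 in 14 other ATF4-responsive genes, of which 4 lay above the 90th percentile. One of these, chosen after its values were seen, was the cystine transporter SLC7A11, at 24.5, 243 and 196 CPM in replicates 1, 2 and 3 and 30.6 with the empty vector.

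**Figure D3:**
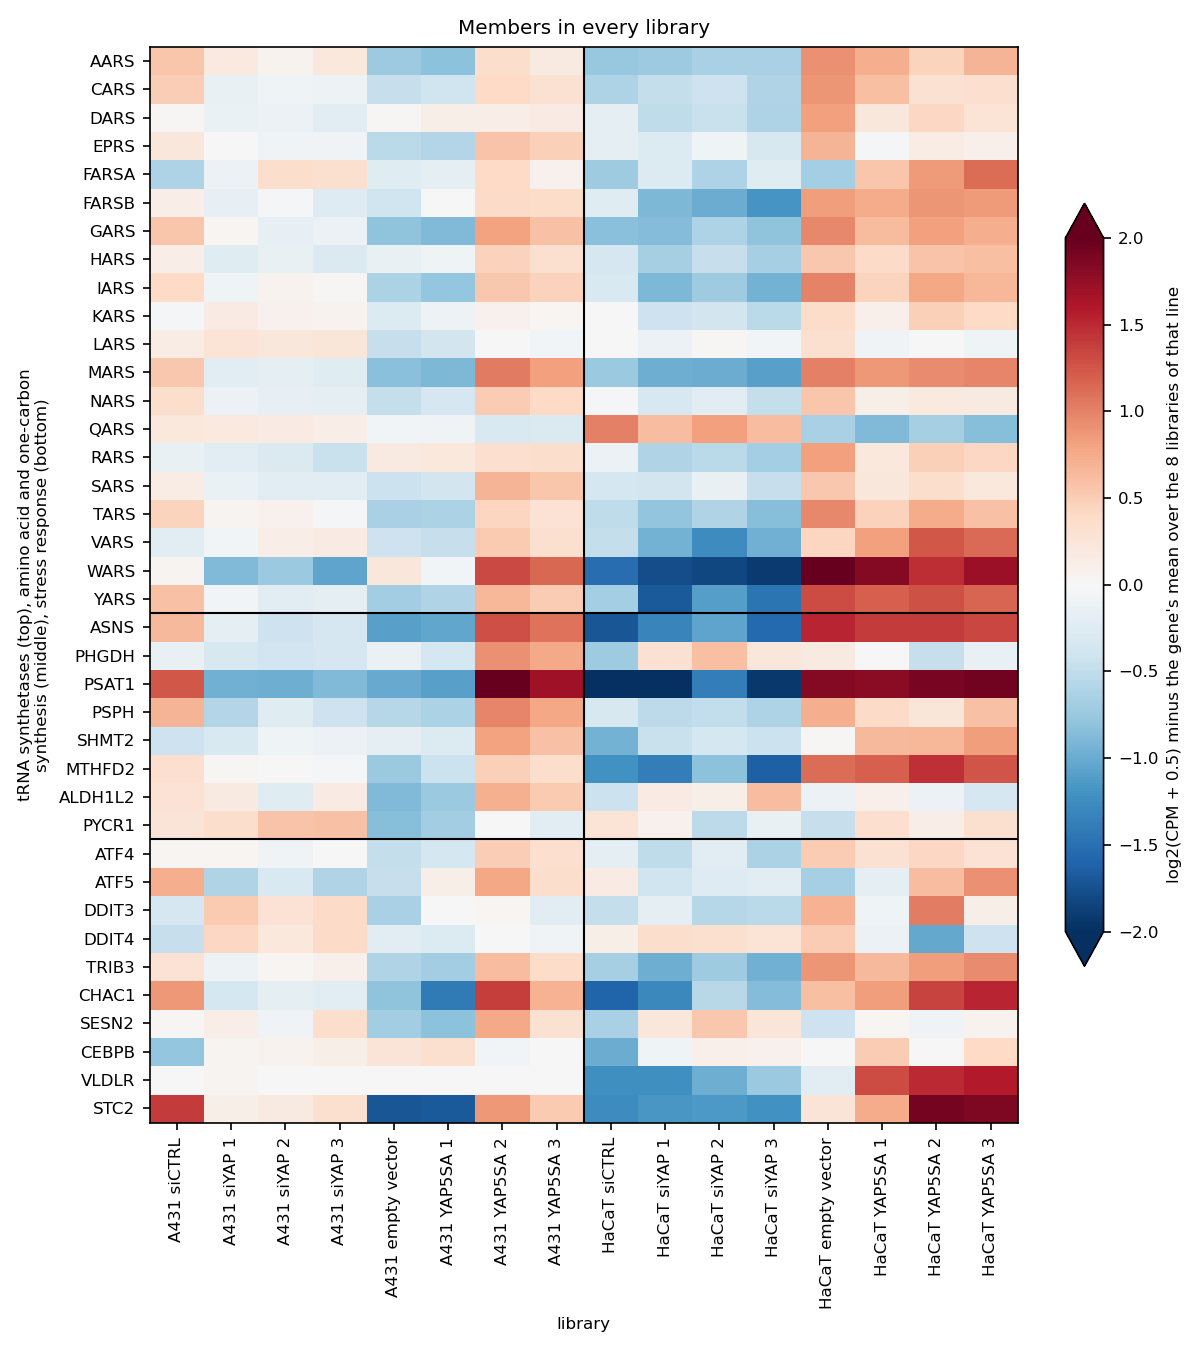
Colours give log2 CPM of each of the 38 members (rows, by role) in the 16 libraries (columns), minus the mean of the gene over the libraries of that line. Colours are saturated beyond 2 log2 units in either direction. A431 YAP5SA replicate 1 resembles the empty vector column, and in HaCaT most rows step between the siRNA and the vector columns. Values are log2(CPM + 0.5).

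Few of these genes were called after siRNA against YAP1. A gene was called at a false discovery rate (FDR) under 0.05 in the quasi-likelihood test of edgeR, adjusted over all 14673 genes, with a mean log2 CPM (logCPM) above 1. In A431 1 member of 38 was called, against 5.6% of all genes. It was CEBPB, a C/EBP partner of ATF4, which stood at 30.7 CPM in siCTRL and 55.2, 55.8 and 57.6 in siYAP, a rise of 0.87 on the log2 scale (SE 0.21, FDR = 0.0305), a call that was lost without any 1 of the A431 siYAP libraries (FDR = 0.0648, 0.0588 and 0.0821 without replicates 1, 2 and 3). In HaCaT 2 members were called, against 5.67% of all genes. CEBPB rose from 6.06 to 11.9, 13.5 and 13.4 CPM, by 1.09 (SE 0.23, FDR = 0.0163), a call lost with each line fitted alone (FDR = 0.0829). With the empty vector CEBPB was at 63.6 CPM in A431 and 12.6 in HaCaT. The siYAP values thus lay above siCTRL, but below the empty vector in A431 and on both sides of it in HaCaT. FARSB, a subunit of the phenylalanine synthetase, fell from 48.2 to 30.6, 28.6 and 24.8 CPM, with a log2 fold change of -0.78 (SE 0.17, FDR = 0.0148, or 0.0509 without HaCaT siYAP replicate 3). In bulk RNA, fewer cells that express a gene and less RNA per cell cannot be told apart.

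Over both lines 4 members were called, against 13% of all genes. CEBPB rose by 0.98 (SE 0.16, FDR = 0.00178), and FARSB (log2 fold change -0.54, SE 0.12, FDR = 0.0101), the arginine synthetase RARS (-0.32, SE 0.10, FDR = 0.0452) and the ATF4 relative ATF5 (-0.95, SE 0.28, FDR = 0.043) fell. RARS was at 148 CPM in A431 siCTRL and 142, 134 and 120.1 in siYAP, and at 161 and 116, 121 and 109.6 in HaCaT. ATF5 was at 5.63 CPM and then 1.95, 2.52 and 1.95 in A431, and at 5.74 and then 3.72, 4.13 and 4.26 in HaCaT. For these 4 genes all siYAP libraries lay on 1 side of the single control, but RARS and ATF5 lost their call in 8 and 7 of the 12 fits that left out 1 library. CEBPB also lost its calls when siCTRL and the empty vector were pooled as 2 controls (FDR = 0.253 over both lines). ATF5 lost its call over both lines in that setting too (FDR = 0.258). With the empty vector ATF5 was at 2.20 CPM in A431 and 2.99 in HaCaT. The median log2 fold change of the members was -0.29 in A431 (0.03 for all tested genes) and -0.04 in HaCaT (0.03), or -0.13 in HaCaT with ALDH1L2, CHAC1 and VLDLR set against a floor of 3 counts, because their siCTRL library held 2, 0 and 0 counts. The difference between the lines was called for 0 of 38 members, against 0.17% of all genes, with 5 members and 1690 of all genes at an unadjusted p under 0.05 in edgeR and 0 members called by DESeq2.

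The siYAP result depended on the shared estimate of spread. Without A431 YAP5SA replicate 1, a library that takes no part in the comparison itself, 12 members were called in A431, 1 higher and 11 lower, against 8.54% of all genes, and 18 over both lines, 5 higher and 13 lower, against 16.6%. The fall in A431 was then called for PSAT1 (log2 fold change -2.21, edgeR FDR = 0.000176), MARS (-0.78, FDR = 0.00182), PSPH, WARS, ASNS, CARS, GARS, NARS, YARS, STC2 and ATF5. The fold changes of PSAT1 and MARS were -2.21 and -0.78 with all libraries as well, and only their error differed.

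YAP5SA against the empty vector gave no call in A431, with 0 of 38 members and 0% of all genes called. At an unadjusted p under 0.05 there were 24 members and 828 of all genes in edgeR, and DESeq2 called 0 members and 3 of all genes. VLDLR had 0 counts in every library of both groups and is left out of what follows. Of the other 37 members 35 had a log2 fold change above 0, with QARS and CEBPB below it, and their median was 0.72 against 0.02 for all tested genes. Without replicate 1, in which the members are low, 21 members were called, all higher, beside 0.592% of all genes, a contrast that the choice of the library left out helps to set. PSAT1 then had a log2 fold change of 2.88 (edgeR FDR = 0.000327), ASNS 2.29 (FDR = 0.000327) and MARS 1.78 (FDR = 0.000182). The other calls were AARS, CARS, EPRS, FARSB, GARS, IARS, NARS, SARS, TARS, WARS and YARS among the synthetases, PSPH, SHMT2 and ALDH1L2 among the enzymes, and ATF4, TRIB3, SESN2 and STC2 among the stress genes, with log2 fold changes from 0.78 in FARSB to 2.48 in STC2. In this fit a pair of libraries was set against 1.

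In HaCaT the empty vector library was already as high as the YAP5SA libraries in most members. PSAT1 was at 182 CPM with the empty vector and 178, 191 and 194 with YAP5SA, and at 11.1 in siCTRL and 12.3, 19.1 and 12.9 in siYAP. ASNS was at 53.5 CPM with the empty vector and 49.1, 49.1 and 47.4 with YAP5SA, against 5.24 in siCTRL and 7.05, 8.60 and 5.95 in siYAP. The step for both enzymes thus lay between the siRNA and the vector cultures. Called were 4 of the 38 members, 1 higher and 3 lower, against 13.6% of all genes. FARSA, the catalytic subunit of the phenylalanine synthetase, was at 16.4 CPM with the empty vector and 39.6, 48.3 and 58.7 with YAP5SA, which is 1.57 on the log2 scale (SE 0.29, edgeR FDR = 0.00761). DARS was at 367 CPM and 242, 277 and 251 (log2 fold change -0.52, SE 0.12, FDR = 0.0146), and RARS at 308 and 202, 245 and 234 (-0.44, SE 0.14, FDR = 0.0462), a call lost in 10 of the 12 fits without 1 library. With each line fitted alone, DARS, RARS and DDIT4 all lost their call (FDR = 0.0699, 0.114 and 0.0633), and with siCTRL and the empty vector as 2 controls the log2 fold change of DARS was -0.10 (FDR = 0.78) and that of RARS -0.05 (FDR = 0.91). DDIT4, an inhibitor of mTORC1 signalling also known as REDD1, was at 375 CPM and 244, 129 and 198 (-0.98, SE 0.23, FDR = 0.0184).

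Over both lines FARSA alone was called, higher by 0.97 on the log2 scale (SE 0.20, edgeR FDR = 0.0341) and 1 of 38 members against 2.04% of all genes. The call was lost without any 1 of 6 libraries, among them A431 YAP5SA replicates 2 and 3 (FDR = 0.065 and 0.0681) and HaCaT YAP5SA replicate 3 (FDR = 0.0551). In A431 it was at 27.5 CPM with the empty vector and 28.8, 43.0 and 34.6 with YAP5SA. Without A431 YAP5SA replicate 1, 20 members were called over both lines, all higher, against 8.3% of all genes.

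The difference between the lines in the effect of YAP5SA was called for 0 of 38 members, against 0.0886% of all genes, with 20 members and 3280 of all genes at an unadjusted p under 0.05 in edgeR and 7 members called by DESeq2. Without A431 YAP5SA replicate 1 it was called for 20 members, all with a lower log2 fold change in HaCaT than in A431, against 5.94% of all genes. They were AARS, CARS, DARS, EPRS, FARSB, GARS, IARS, LARS, MARS, NARS, SARS, TARS, WARS, YARS, ASNS, PHGDH, PSAT1, PSPH, ATF4 and TRIB3, and their differences ran from -0.64 in DARS to -2.83 in PSAT1 on the log2 scale.

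**Figure D4:**
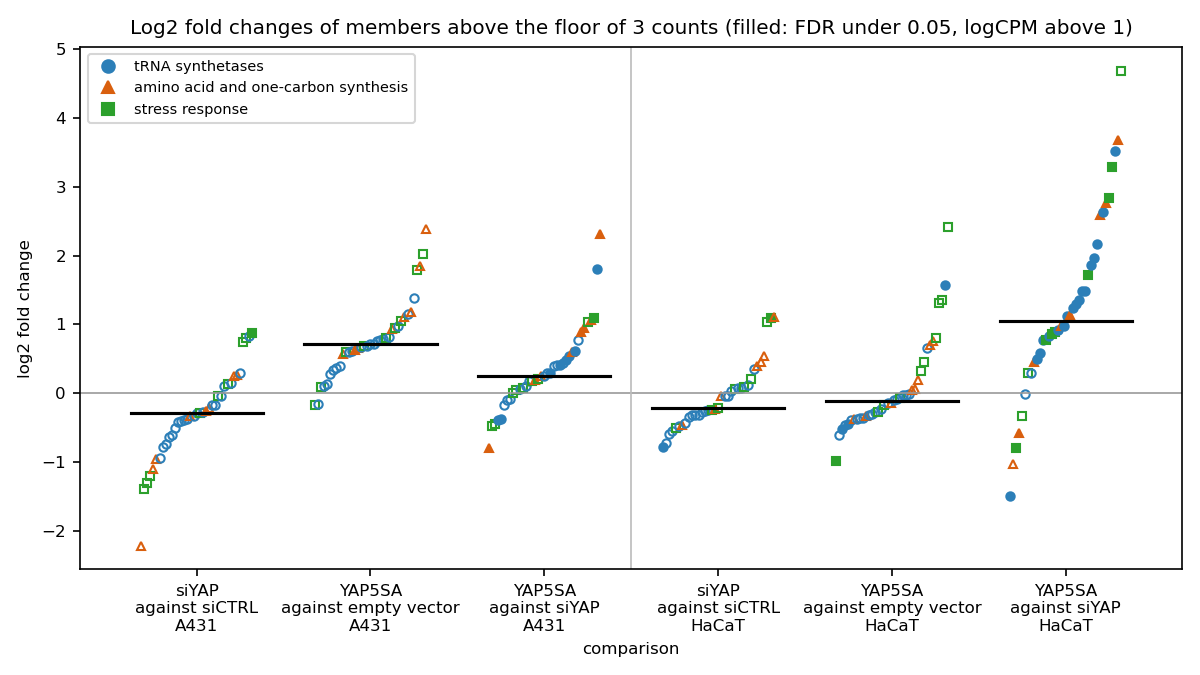
Log2 fold change (y axis) of the members in 6 comparisons (x axis), with circles for tRNA synthetases, triangles for synthesis enzymes, squares for stress genes, filled symbols for calls and black lines for medians. Members at or under 3 counts in every library of a group are left out. The median is 0.72 for YAP5SA against empty vector in A431 and 1.05 for YAP5SA against siYAP in HaCaT.

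The control libraries of both arms differed in these genes, in opposite directions in the lines. There is 1 library of each, and this difference was not tested. In A431 the empty vector library was over 2-fold below siCTRL in 15 members, against 4.4% of all tested genes, and over 2-fold above it in 1 (CEBPB), against 7.37%. STC2 and PSAT1 lay furthest below, by -3.17 and -2.27 on the log2 scale. In HaCaT it was over 2-fold above siCTRL in 21 members, against 17.4%, and over 2-fold below it in 1 (QARS), against 22%. PSAT1 and ASNS were higher there by 4.03 and 3.35 and WARS by 3.53. Among the 21, ALDH1L2, CHAC1 and VLDLR had 0 to 2 counts in siCTRL. Vector and siRNA delivery, and whatever else separated the 2 arms, cannot be told apart here.

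YAP5SA and siYAP libraries, 3 against 3, differed within each line, with the arm changing together with YAP1. In A431 12 of 38 members were higher with YAP5SA, against 20% of all genes, and 3 lower, against 14.6% (34.6% in either direction). WARS was higher by 1.81 on the log2 scale (SE 0.26, edgeR FDR = 0.00019), PSAT1 by 2.32 (SE 0.51, FDR = 0.00357) and PHGDH by 0.89 (SE 0.24, FDR = 0.0122). RARS was at 189, 206 and 209 CPM with YAP5SA, above all the siYAP values given above, and was higher by 0.61 (SE 0.10, FDR = 0.000453). HARS, for histidine, was at 40.1, 58.7 and 53.2 CPM against 36.1, 38.2 and 34.8 (log2 fold change 0.48, SE 0.13, FDR = 0.0119). The other calls that were higher were FARSB, DARS, SARS, PSPH, SHMT2, ASNS and ATF5. With each line fitted alone, ASNS, SARS, PSPH and SHMT2 lost their call (edgeR FDR = 0.0996, 0.0846, 0.055 and 0.0646). ASNS also lost it by DESeq2 (FDR = 0.0653). Each of these other genes lost its call in at least 1 fit that left out 1 library, and ASNS and SARS in most of those fits. PHGDH and HARS lost theirs without A431 YAP5SA replicate 2 (edgeR FDR = 0.0651 and 0.0656). ASNS lost its call with a replicate block too (edgeR FDR = 0.0808). SARS lost its call with RLE factors and with more than 10 counts in every library (edgeR FDR = 0.0509 and 0.0541).

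The members called lower in A431 were PYCR1, QARS and LARS. PYCR1 was at 27.0, 43.6 and 37.5 CPM with YAP5SA and 56.3, 65.5 and 65.8 with siYAP (log2 fold change -0.79, SE 0.18, edgeR FDR = 0.00407). QARS was at 129, 109 and 111 CPM against 155, 152 and 147 (-0.38, SE 0.10, FDR = 0.00891), and LARS, for leucine, at 275, 354 and 341 against 426, 414 and 416 (-0.37, SE 0.10, FDR = 0.0104). The YAP5SA values of these 3 genes lay below all siYAP values. With the empty vector they were at 24.2, 129 and 256 CPM, and in siCTRL at 52.2, 156 and 389.8. Over all members the groups did not overlap in 6 that were higher and 5 that were lower, and overlapped in 27, against 26.9% and 27.1% of all tested genes that were higher and lower without overlap. When A431 YAP5SA replicate 2 was left out, 7 of 38 members were called, against 25.3% of all genes, without replicate 3 it was 8 against 24.7%, and without A431 siYAP replicate 3 it was 9 against 25.6%, so these counts were near or below the share of all genes. Without A431 YAP5SA replicate 1, 27 members were called, 24 higher and 3 lower, against 37.6% of all genes.

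In HaCaT 29 of 38 members were higher with YAP5SA than with siYAP, against 31.5% of all genes, and 3 lower, against 28.5% (60% in either direction). The median was 1.05 for the members and -0.06 for all tested genes, and in 31 members every YAP5SA library lay above every siYAP library, against 34.3% of all tested genes. The empty vector library stood with the YAP5SA libraries in most of these genes, as for PSAT1 and ASNS above, so the values do not separate YAP5SA from the vector arm. FARSB was at 95.7, 106 and 103 CPM with YAP5SA and 102 with the empty vector, against 30.6, 28.6 and 24.8 with siYAP (higher by 1.86 on the log2 scale, SE 0.12, edgeR FDR = 3.85e-08). WARS was at 992, 775 and 914 CPM and 1116 with the empty vector, against 81.2, 78.4 and 73.7 with siYAP and 96.3 in siCTRL (log2 fold change 3.52, SE 0.28, FDR = 1.74e-07). YARS, for tyrosine, was at 174, 183 and 169 CPM and 187 with the empty vector, against 23.2, 34.8 and 27.0 with siYAP and 46.7 in siCTRL (2.63, SE 0.26, FDR = 1.42e-06).

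VARS, for valine, was at 38.6, 52.2 and 48.3 CPM with YAP5SA in HaCaT, above the empty vector at 29.3, and at 11, 8.80 and 10.9 with siYAP (log2 fold change 2.17, SE 0.22, edgeR FDR = 1.7e-06). RARS and DARS were higher than with siYAP by 0.98 (SE 0.10, FDR = 1.75e-06) and 0.83 (SE 0.09, FDR = 1.87e-06), and stood lower than with the empty vector. DARS was at 145, 152 and 134 CPM with siYAP and 182 in siCTRL. MTHFD2, a mitochondrial folate enzyme, was at 132, 159 and 138 CPM with YAP5SA and 125 with the empty vector, against 21.8, 32.1 and 18 with siYAP and 24.6 in siCTRL (log2 fold change 2.58, SE 0.23, FDR = 6.28e-07). PSAT1 and ASNS were higher by 3.67 (SE 0.55, FDR = 5.36e-05) and 2.76 (SE 0.44, FDR = 8.76e-05). QARS went the other way, at 73.4, 85.2 and 75.1 CPM with YAP5SA and 86.2 with the empty vector, against 209.8, 240.1 and 208 with siYAP and 273 in siCTRL (-1.49, SE 0.10, FDR = 4.55e-08).

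The stress genes of HaCaT moved less evenly. TRIB3 was at 60.1, 68.9 and 73.8 CPM with YAP5SA and 71.0 with the empty vector, against 19.1, 23.0 and 19.4 with siYAP and 23.8 in siCTRL (log2 fold change 1.72, SE 0.25, edgeR FDR = 4.04e-05). CHAC1 was at 2.20, 3.36 and 3.83 CPM and 1.78 with the empty vector, against 0.116, 0.535 and 0.331 with siYAP (3.28, SE 0.73, FDR = 0.00138), the siYAP values resting on 3 to 11 counts. The CHAC1 call was lost with each line fitted alone and without A431 YAP5SA replicate 2. The edgeR FDR stayed low there (0.000519 and 0.000828), so it was the logCPM threshold that was missed. ATF4 was at 315, 340.3 and 312 CPM and 362 with the empty vector, against 179, 219.8 and 164 with siYAP and 222 in siCTRL (0.78, SE 0.17, FDR = 0.00139). DDIT3 was at 21.4, 46.8 and 24.8 CPM and 37.3 with the empty vector, against 20.1, 15.2 and 15.6 with siYAP and 16.3 in siCTRL (0.87, SE 0.24, FDR = 0.00562), and replicate 2 lay apart. STC2 was at 44.0, 99.5 and 96.3 CPM and 31.3 with the empty vector, against 11.3, 11.4 and 11 with siYAP and 10.6 in siCTRL (2.83, SE 0.49, FDR = 0.00019). DDIT4 was lower by -0.79 (SE 0.17, FDR = 0.00125), and so was PHGDH by -0.58 (SE 0.24, FDR = 0.0473), at 197, 142 and 178 CPM with YAP5SA, 224 with the empty vector, 242, 299 and 231 with siYAP and 119 in siCTRL. The PHGDH call was lost with no filter (FDR = 0.0628), with a replicate block (FDR = 0.0624) and in 9 of the 12 fits without 1 library (FDR up to 0.154, without HaCaT siYAP replicate 2). VLDLR was at 2.41, 2.78 and 3.04 CPM with YAP5SA and 0.510 with the empty vector, against 0 to 0.198 in the siRNA libraries, and was too low to be called. EPRS, LARS, ALDH1L2, SESN2 and CEBPB were not called.

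Other lists rose beside the members between the arms of HaCaT. Of all genes 31.5% were called higher and 28.5% lower with YAP5SA than with siYAP there. Of 14 other ATF4-responsive genes 11 were higher and 1 lower (median log2 fold change 1.37), with the lowest FDR in the translation repressor EIF4EBP1 (2.03, SE 0.17, edgeR FDR = 3.62e-07) and the largest fold change in SLC7A11 (2.94, SE 0.59, FDR = 0.000633). Of 14 endoplasmic reticulum chaperones 12 were higher and 1 lower (median 0.70), of 17 mitochondrial synthetases 11 and 0 (0.37), of 13 other serine, proline and one-carbon enzymes 7 and 2 (0.57), of the 3 scaffolds of the synthetase complex 3 and 0 (1.27), and of the 7 eIF2 kinase and phosphatase genes 4 and 1 (0.56). Interferon-responsive genes showed the largest step of these lists, with 8 of 8 higher and a median of 4.95. Of 8 hypoxia-responsive genes 6 were higher and 0 lower (1.89). The part of interferon or hypoxia responses in the member values was not tested.

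In A431 the same lists were mixed between YAP5SA and siYAP. Of all genes 20% were called higher and 14.6% lower there, and several of the list counts lay near those shares. All counts include A431 YAP5SA replicate 1. Of the 14 other ATF4-responsive genes 3 were higher and 5 lower, with GDF15, NUPR1 and ATF3 lower at the smallest FDR. Higher and lower were 7 and 1 of the mitochondrial synthetases, 3 and 2 of the chaperones, 3 and 5 of the other serine, proline and one-carbon enzymes, 2 and 0 of the scaffolds, 2 and 1 of the eIF2 kinase and phosphatase genes, 7 and 0 of the interferon-responsive and 5 and 0 of the hypoxia-responsive genes. After siYAP, over both lines, 5 of the 14 chaperones were called higher and 4 of the 13 other serine, proline and one-carbon enzymes lower, while 0 of the 14 other ATF4-responsive genes were called. Of all genes 13% were called there in either direction.

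A431 and HaCaT differed in many members when the siYAP libraries were compared. In the YAP5SA libraries the members called in either direction were near the share of all genes. The single controls did not give 1 direction: TARS was at 255 CPM in HaCaT and 449.6 in A431 with siCTRL, and at 704 and 208 with the empty vector. In the siYAP libraries 26 of 38 were lower in HaCaT, against 31.7% of all genes, and 3 higher, against 26.9% (58.6% in either direction). ALDH1L2, a mitochondrial folate dehydrogenase, was at 50.1 to 67.2 CPM in A431 siYAP and 0.389 to 0.760 in HaCaT, a log2 difference of -6.81 (SE 0.43, edgeR FDR = 1.91e-08). MTHFD2 was at 377, 367 and 365 CPM in A431 (-3.95, SE 0.25, FDR = 1.77e-08), and PYCR1 at 10.5, 6.71 and 8.92 CPM in HaCaT (-2.84, SE 0.19, FDR = 3.83e-08). CEBPB differed by -2.12 (SE 0.15, FDR = 4.64e-08). LARS was at 164, 182 and 172 CPM in HaCaT (-1.28, SE 0.10, FDR = 1.41e-07). YARS, at 185, 165 and 168 CPM in A431, differed by -2.61 (SE 0.26, FDR = 1.3e-06), TRIB3 by -2.31 (SE 0.25, FDR = 3.01e-06), VARS, at 37.1, 42.5 and 43.3 CPM in A431, by -2.0 (SE 0.22, FDR = 3.22e-06) and ASNS by -3.94 (SE 0.45, FDR = 4.62e-06). QARS, PHGDH and ATF5 were the 3 that were higher in HaCaT.

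In the YAP5SA libraries 14 of 38 members were lower in HaCaT, against 26.7% of all genes, and 6 higher, against 23.5% (50.2% in either direction). ALDH1L2 (log2 difference -8.08, SE 0.45, edgeR FDR = 1.35e-08), CEBPB (-1.83, SE 0.15, FDR = 3.02e-07), LARS (-0.91, SE 0.10, FDR = 5.61e-06), PYCR1, MTHFD2 and ASNS were again lower. ALDH1L2 was at 35.2, 97.4 and 85.9 CPM in A431 and 0.384, 0.258 and 0.153 in HaCaT. CEBPB was at 66.1, 50.8 and 52.4 CPM in A431 and 18.1, 12.6 and 16.7 in HaCaT. HARS, at 80.1, 91.4 and 93.4 CPM in HaCaT, was higher by 0.80 (SE 0.13, FDR = 0.000161) and WARS by 1.13 (SE 0.25, FDR = 0.00193). QARS was lower in HaCaT here (-0.58, SE 0.10, FDR = 0.000246) and higher in the siYAP libraries (0.53, SE 0.10, FDR = 0.000319). VLDLR, with 0 counts in every A431 YAP5SA library, was at least 24.6-fold higher in HaCaT against a floor of 3 counts per library. The calls of EPRS, ATF5, FARSA and SESN2 were lost without HaCaT YAP5SA replicate 3 (edgeR FDR = 0.0822, 0.223, 0.205 and 0.0672). They were also lost in several other fits that left out 1 library. Without A431 YAP5SA replicate 1, 24 members were called, 3 higher and 21 lower, against 47.7% of all genes.

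In A431 YAP5SA replicate 1 the median deviation was -1.28 log2 units over the 9 members with the TGATGNAA letters printed above and -0.50 over the 21 matched members without them, and the 9 ran from -3.24 in CHAC1 to -0.74 in CARS. For YAP5SA against siYAP in HaCaT the medians were 1.49 and 0.89, and for siYAP against siCTRL in A431 -0.61 and -0.21. They lay closer for siYAP against siCTRL in HaCaT, at 0.08 and -0.04, and for YAP5SA against empty vector in A431, at 0.82 and 0.67, and over both lines, at 0.23 and 0.26. For YAP5SA against empty vector in HaCaT they were -0.30 and -0.03. PSAT1, STC2 and TRIB3, which showed the same gap, held no match in this window.

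Some levels carry a limit of the annotation. MARS and DDIT3 lie on opposite strands with overlapping exons in GENCODE v29, and since it is not stated that strand was used in counting, their reads cannot be told apart there. In all, 10 members overlapped exons of a protein-coding gene on the opposite strand, among them WARS, HARS, KARS, YARS, SHMT2, MTHFD2, ALDH1L2 and ATF5, and 13 had a pseudogene of their name, with which reads could be shared.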

How the data were processed

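RNA of 16 libraries was sequenced as paired reads. The authors trimmed and mapped them to RefSeq gene models and deposited 1 table of RSEM estimated counts (expected counts), neither scaled nor filtered. The submitters' processing notes name RSEM 1.2.11, edgeR and the build hg19, and the methods a later RSEM version. Groups came from the sample labels. The members and all gene lists were chosen with earlier results of these data known.

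Counts were rounded and fitted in R 4.3.3 with edgeR 4.0.16 (1 model of 8 groups, TMM factors, mean above 10 counts per library, prior count 0.125, 8 residual degrees of freedom, common biological coefficient of variation 0.174), with Benjamini-Hochberg adjustment. The SE is the absolute log2 fold change over the square root of F. Alternatives were DESeq2 1.42.0, RLE factors, other filters, FDR alone, each line alone, pooled controls and each treated library left out. In simulated data with 200 of 14673 genes changed 2-fold, 91.0% were recovered in YAP5SA against siYAP in A431, and 27.5% in siYAP against siCTRL in A431. The simulation gave all genes the same dispersion and no library that stood apart. These shares therefore do not describe the members in the A431 YAP5SA triplicate, where replicate 1 stood apart. Values in every library were given for the members with the lowest FDR of each comparison (up to 8), those with the largest and smallest spread, and ATF4, DDIT3, TRIB3, CHAC1, ASNS, PHGDH, PSAT1 and WARS. The 12 replicate pairs differed beyond sampling noise (chi-square per degree of freedom 6.65 to 144). Promoter letters were counted in Python 3.11.15.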

Additional observations from a re-analysis of the deposited data

How the results depend on the processing

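Leaving out 1 treated library at a time gave 0 to 12 called members for siYAP against siCTRL in A431, 1 to 8 in HaCaT and 2 to 18 over both lines, 0 to 21 for YAP5SA against empty vector in A431, 3 to 13 in HaCaT and 0 to 20 over both lines, 0 to 3 and 0 to 20 for the differences between lines of the siYAP and YAP5SA effects, 7 to 27 for YAP5SA against siYAP in A431 and 28 to 34 in HaCaT, and 26 to 33 and 14 to 24 for HaCaT against A431 in the siYAP and YAP5SA libraries. Each highest value was the one without A431 YAP5SA replicate 1. Calls over all genes moved as well in that fit. For siYAP against siCTRL they rose from 821 to 1256 in A431, 832 to 1180 in HaCaT and 1904 to 2446 over both lines. For YAP5SA against empty vector they rose from 2001 to 2595 in HaCaT and 300 to 1220 over both lines. For HaCaT against A431 in the YAP5SA libraries they fell from 7362 to 7019. The pooled spread between replicates ran from 0.141, also without that library, to 0.352. Without HaCaT YAP5SA replicate 1, siYAP against siCTRL gave 3, 4 and 7 members in A431, HaCaT and both lines, and YAP5SA against empty vector 4 over both lines. The shares of all genes called in that fit are not given, so these counts cannot be set against them.

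For siYAP against siCTRL in A431, 2 members were called with no filter, 3 with more than 10 counts in every library, 4 with each line fitted alone, 0 with siCTRL and empty vector as 2 controls and 5 by DESeq2. In HaCaT it was 13 with 2 controls and 4 by DESeq2, and over both lines 8 and 8. For YAP5SA against empty vector, 2 were called in HaCaT with each line fitted alone, and over both lines 3 with 2 controls and 6 by DESeq2. DESeq2 called 7 for the difference of the YAP5SA effect. Calls over all genes moved as well under several of these settings, as given below. Where no value over all genes is given for a setting, the member count cannot be set against the share of all genes. The causes were not tested. No called member changed its direction under any of these settings.

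Over all genes, 821 calls for siYAP in A431 became 198 with 2 controls and 1430 by DESeq2. In HaCaT 832 became 349 with each line fitted alone, 2941 with 2 controls and 1345 by DESeq2, and over both lines 1904 became 2933 with 2 controls. For YAP5SA against empty vector, 0 in A431 became 2 with no filter, 1 with 2 controls and 3 by DESeq2, 2001 in HaCaT became 654 with each line fitted alone, and 300 over both lines became 766 with 2 controls and 1063 by DESeq2. For the difference of the siYAP effect, 25 became 13 with RLE factors, 11 with 2 controls and 294 by DESeq2, and for that of the YAP5SA effect 13 became 108 with RLE factors, 35 with no filter, 217 with more than 10 counts in every library, 1 with 2 controls and 943 by DESeq2.

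Replicate numbers gave no clear pairing of the samples: correlations of same-numbered deviations ran from -0.0184 to 0.230, with 4 of 18 over 0.1. Those over 0.1 all lay between the lines under the same treatment. The highest was that of replicate 1 between A431 YAP5SA and HaCaT YAP5SA. Correlations of different numbers are not given for comparison, so a weak pairing there is left undecided. With a replicate block, 14 and 30 members were called for YAP5SA against siYAP in A431 and HaCaT, and 29 and 21 for HaCaT against A431. The same 12 libraries without the block, a setting added after the data were seen, gave 15, 32, 29 and 20. Shares of all genes called in these fits are not given, so the counts do not tell members from genes at large. In the main fit of all 16 libraries those shares were 34.6%, 60%, 58.6% and 50.2%. No paired analysis was possible for the control comparisons because each control was 1 library. In every comparison with a control, 1 control library limits what can be called.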
